A study of Oryza sativa with 4 samples.

Results

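Hexokinase genes were followed in young rice panicles (Oryza sativa) on an Affymetrix rice array, as 7 of the 17905 genes that its annotation names (8 of 57194 probe sets). The members are the probe sets that the platform annotation ties to 1 gene and whose gene bears a name from HXK1 to HXK10 in the RefSeq rice gene table. That table holds 10 such genes, of which 7 have a probe set. HXK1, HXK9 and HXK10 are the names that reach none, so the genes LOC4343113 (HXK1), LOC4324666 (HXK5 or HXK9) and LOC107275630 (HXK7 or HXK10) were not analysed here. The table gives 7 of the 10 genes a pair of HXK names, because more than 1 numbering is in use. Only 1 assignment uses each name once and leaves every gene with a name of its own. In that assignment LOC4326776 is HXK8, LOC4326547 is HXK6, LOC4326516 is HXK3, LOC4338010 is HXK7, LOC4339361 is HXK5, LOC4339420 is HXK2 and LOC4342654 is HXK4, and these names are used below. The roles given with them rest on this assignment.

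Hexokinases phosphorylate glucose and other hexoses and so feed the sugar released from sucrose into glycolysis, starch and cell wall synthesis. Some plant hexokinases also report glucose to the nucleus, apart from their catalysis. In rice, HXK5 and HXK6 are known as such glucose sensors and are found at mitochondria and in the nucleus, HXK4 lies in the plastid stroma, HXK7 in the cytosol, and HXK10 is needed for anther dehiscence and pollen germination. The study's authors connect HXK1 with the argonaute protein OsAGO2 in anthers. With HXK1 not analysed here, the genotype comparison covers only the other members of the family.

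Panicles before stage 5 were taken from WT, the cultivar ZH11, and from ago2-1 plants, described as OsAGO2 antisense, all grown in the field under normal conditions. Each genotype gave 1 array in 2013 and 1 in 2014, so n = 2 arrays per genotype. The sources used here give neither the promoter of the antisense construct nor the number of lines and plants behind an array. P-values therefore measure the spread between these arrays, and year, field season and array processing cannot be told apart.

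The values are probe set intensities, given below as log2. In 2013 the median intensity was 29.1 for WT and 28.8 for ago2-1, and in 2014 it was 45.3 and 45.2. Within a year the distributions nearly coincided, so genotypes are compared on the deposited values and years only after quantile scaling, which gives all 4 arrays the same distribution. All 16 measured panicle markers (floral MADS-box genes and DL) lay above the array median on each array. As deposited, their summed intensity in 2013 was 32175 for WT and 35203 for ago2-1, and in 2014 it was 47990 and 51771. AGO2 (LOC4336991), the targeted gene, read 9.54 (WT) and 9.62 (ago2-1) on the log2 scale in 2013, and 10.53 and 10.98 in 2014, so its ago2-1 value was never the lower of a year. Which stretch of AGO2 the antisense construct spans is unknown here, so every direction refers to the library labelled ago2-1.

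HXK5, a glucose sensor, was lower on the ago2-1 array in each year by about the same amount. In 2013 its log2 intensity was 9.01 for WT and 8.69 for ago2-1, and in 2014 it was 9.58 and 9.35. Each ago2-1 array thus lay below the WT array of its own year, while over both years the groups overlapped on this deposited scale. After quantile scaling they did not overlap. The higher ago2-1 array (9.03, in 2014) then lay below the lower WT array (9.28, in 2014). The difference between the genotypes was −0.27 ± 0.06 (SD of the within-year differences, n = 2), with −0.32 in 2013 and −0.23 in 2014. A year block gave a 95% interval from −0.58 to 0.03 (limma, adjusted p = 0.59).

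HXK6, the other glucose sensor, was nearly level between the genotypes. It lay at 9.65 (WT) and 9.59 (ago2-1) in 2013, and at 10.46 and 10.47 in 2014. The arrays of a year differed less than the years did. The differences were −0.06 and 0.01. Their mean had a 95% interval from −0.33 to 0.28 when the year was a block, so these arrays do not show that HXK6 is equal in both genotypes.

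HXK4, the plastid enzyme, showed the closest match between the years among the members at least 0.2 apart. In 2013 it lay at 7.78 in WT and 7.42 in ago2-1, and in 2014 at 8.64 and 8.32. The ago2-1 array was the lower of its year each time, by −0.36 in 2013 and −0.32 in 2014. Of all probe sets, 20.0% were at least as far apart in 2013 and 13.4% in 2014, so a gap of this size is not rare on these arrays. The mean difference was −0.34 ± 0.03 (SD, n = 2), and the year block gave a 95% interval from −0.65 to −0.04 (limma, unadjusted p = 0.034, adjusted p = 0.54).

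HXK7, the cytosolic enzyme, hardly separated the genotypes and stood apart between the years. It lay at 5.81 (WT) and 5.65 (ago2-1) in 2013, and at 7.23 and 7.35 in 2014. On this deposited scale both arrays of 2014 lay above both arrays of 2013, as they did for every member. After quantile scaling they still did for HXK7, at 6.91 (WT) and 7.04 (ago2-1) over 6.12 and 5.95. The order of the genotypes turned between the years. The genotype differences were −0.16 and 0.13.

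LOC4326776, HXK8 by the assignment above, was the member with the smallest p between the genotypes without a block and the only one higher on the ago2-1 array in each year. In 2013 the WT array read 7.31 and the ago2-1 array 7.89, and in 2014 they read 8.05 and 8.27. As deposited, the ago2-1 array of 2013 lay below the WT array of 2014. After quantile scaling, both ago2-1 arrays (8.20 in 2013 and 7.95 in 2014) lay above both WT arrays (7.64 and 7.74). The differences of 0.58 and 0.22 correspond to 1.50-fold and 1.17-fold higher intensities. As large a difference in either direction was seen for 7.39% of all probe sets in 2013 and 27.3% in 2014. The mean of 0.40 ± 0.26 (SD, n = 2) had a 95% interval from −0.84 to 1.64 without a block (limma, adjusted p = 1) and from 0.04 to 0.77 under a year block (adjusted p = 0.55). Its probe set, like that of HXK6, has the suffix _s_at, which Affymetrix uses for probes that can match more than 1 transcript. Whether related hexokinase transcripts contribute to these signals was not tested.

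HXK3 had the largest single gap of any member, and only in 2013. In that year it lay at 5.13 in WT and 4.41 in ago2-1, against 5.77 and 5.90 in 2014. The ago2-1 array of 2013 was the low one, and its value was the only member value below the median of its array (4.85). The differences were −0.71 and 0.13, with a mean of −0.29 ± 0.59 (SD, n = 2), so the spread between the years was larger than the mean. The year block gave a 95% interval from −0.84 to 0.26 (limma, adjusted p = 0.72).

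HXK2 was the only member with a second probe set. The brighter one lay at 7.78 (WT) and 7.74 (ago2-1) in 2013, and at 8.35 and 8.29 in 2014, and so differed by −0.04 and −0.06. The other lay at 6.56 and 6.57 in 2013, and at 6.86 and 7.03 in 2014, with differences of 0.01 and 0.17. The probe sets thus gave opposite signs, and under a year block each 95% interval crossed 0 (−0.36 to 0.25, and −0.23 to 0.40).

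**Figure D1:**
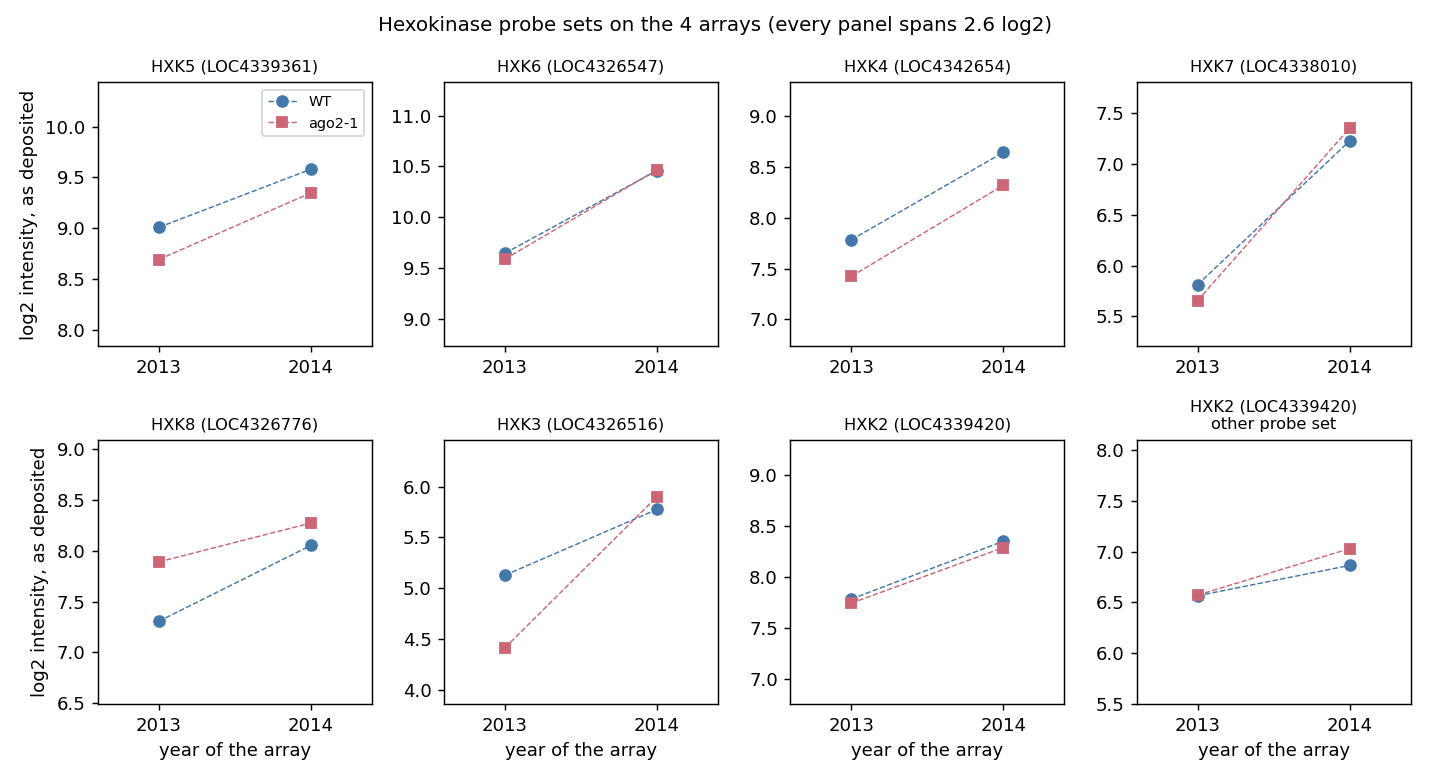
Log2 intensity as deposited (vertical axis) of the 8 hexokinase probe sets by year of the array (horizontal axis), with 1 point per array, circles for WT and squares for ago2-1. Dashed lines join the arrays of a genotype and are no time course. Every probe set was higher in 2014 on this scale. The ago2-1 point lay below WT in both years for HXK5 and HXK4, and by a little for the brighter HXK2 probe set. It lay above WT in both years for HXK8 and, by 0.01 and 0.17, for the other HXK2 probe set.

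Over the 7 genes, each taken by its brighter probe set, none passed the genotype test (limma, Benjamini-Hochberg adjusted p = 1 for each), where 29 or 0.0507% of all probe sets passed. At an unadjusted p under 0.05 the count was also 0 of 7, against 0.512% of all probe sets. The change between the years stays in the error of this fit. A count of 0 therefore does not show that the members are equal in both genotypes. Under a year block 61 probe sets (0.107%) passed and none of the members, whose adjusted p ran from 0.54 to 0.98. At an unadjusted p under 0.05 the block gave 2 members, HXK4 lower and HXK8 higher, against 8.77% of all probe sets. In 3 genes the ago2-1 array was lower in both years (27.0% of all probe sets), in 1 higher in both (29.7%), and in 3 the years had opposed signs (43.2%). The median difference of the members was −0.16 in 2013 and 0.01 in 2014, against 0.01 and 0.00 for all probe sets. The median size of their differences, whatever the sign, was 0.32 in 2013 and 0.13 in 2014, against 0.17 and 0.13. The SE of the members ran from 0.61 to 0.65 without a block, where it holds the change between the years. Under the block it ran from 0.12 to 0.22. Limma draws each SE towards a variance shared by all probe sets. Without a block the prior degrees of freedom were 40.3 against 2 residual, so those SEs mostly reflect the shared variance. Of the late anther markers only OsC4 (LOC9270168), an anther-specific gene, was measured, at 12.35 (WT) and 11.72 (ago2-1) in 2013 and 11.48 and 11.06 in 2014, so it was lower on the ago2-1 array of each year. Whether a difference in anther stage or share plays a part in the hexokinase values was not tested. Without a block, leaving out 1 array unbalances the years, so part of the shift between the deposited years enters each difference. These fits therefore cannot show whether a sign is stable. The sign of each member but HXK8 turned when the 2013 ago2-1 array was dropped, and likewise for the 2014 WT array. HXK8, at 0.40 on all arrays, then lay at 0.59 and 0.78. It fell to 0.03 without the 2013 WT array and to 0.21 without the 2014 array of ago2-1.

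**Figure D2:**
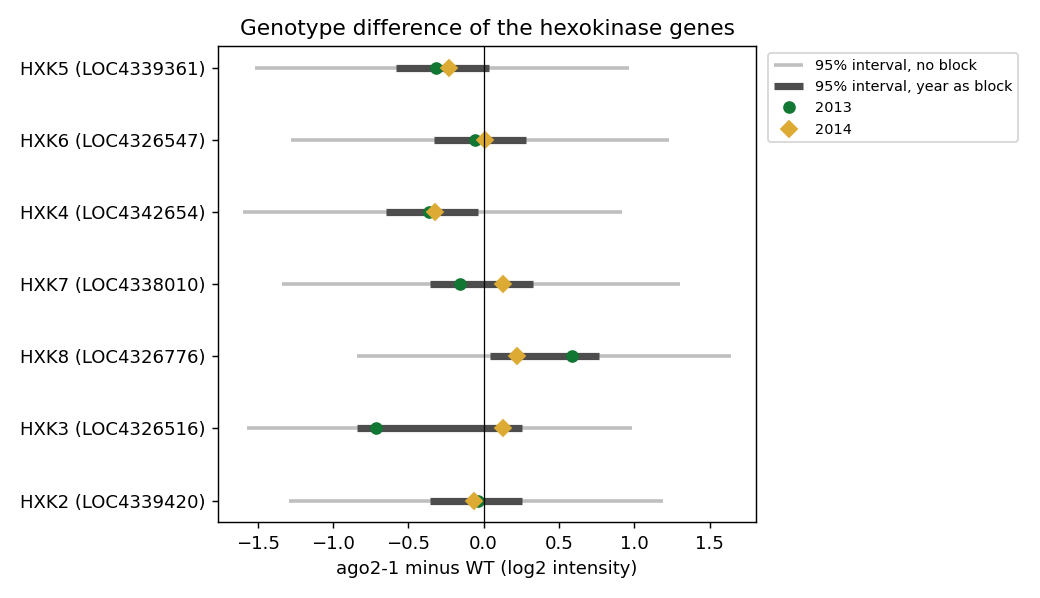
Difference in log2 intensity, ago2-1 minus WT (horizontal axis), of the 7 hexokinase genes, with a circle for 2013 and a diamond for 2014. Thin grey bars are limma's 95% intervals without a block and thick dark bars those under a year block. HXK4 lay at −0.36 and −0.32 and HXK8 at 0.58 and 0.22, and theirs are the only thick bars that do not reach 0.

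Between the years, HXK7 was the member that rose. After quantile scaling its WT arrays lay at 6.12 in 2013 and 6.91 in 2014, and its ago2-1 arrays at 5.95 and 7.04. Both values of 2014 were above both of 2013, by 0.79 in WT and 1.08 in ago2-1. The mean rise was 0.94 ± 0.21 (SD of the genotypes, n = 2), or 1.91-fold, with a 95% interval from 0.59 to 1.28 (limma with genotype as a term, adjusted p = 0.0125). This was 1 of 7 members, where 23.3% of all probe sets passed, 12.2% as higher in 2014 and 11.1% as lower. Fitted without a genotype term, HXK7 was still called when either array of 2013 was dropped. In each such fit 1 array stands alone for its year and is assumed to vary like the other pair. HXK7 was not called when the 2014 array of WT (1.00, adjusted p = 0.15) or of ago2-1 was dropped (0.87, adjusted p = 0.16). In those fits limma called 0 of all 57194 probe sets, with 12689 and 12544 at an unadjusted p under 0.05.

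The other 6 members did not pass between the years, with adjusted p from 0.175 to 0.996. HXK3 lay at 5.44 (2013) and 5.45 (2014) on the scaled WT arrays and at 4.75 and 5.59 on the ago2-1 arrays, so its change of 0.42 (95% interval −0.12 to 0.96) lay in the ago2-1 arrays. It was called when the 2013 WT array was dropped (0.77, adjusted p = 0.049), a fit in which the low ago2-1 array stands alone for 2013 and is assumed to vary like the arrays of 2014. HXK6 (0.26, interval −0.05 to 0.56) and HXK4 (0.24, interval −0.07 to 0.54) lay above 0 in both genotypes. HXK5 (0.00, interval −0.30 to 0.31), HXK8 (−0.07, interval −0.43 to 0.28) and HXK2 (−0.09, interval −0.39 to 0.22) centred near 0. On the deposited scale all 7 members passed as higher in 2014, by 0.56 to 1.56, as did 78.2% of all probe sets, whose median change was 0.71 there.

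Green leaf markers moved with the years as well. Their 6 measured genes had a summed intensity after quantile scaling of 6394 (WT) and 7399 (ago2-1) in 2013, and 26838 and 24173 in 2014, and 5 of the 6 lay above the array median on each array. Their lowest member lay between 1.71 and 2.93 on the deposited log2 scale. On the same scaled values the 5 measured genes of filled grain summed to 898 and 997 in 2013 and to 1020 and 999 in 2014. On each array 3 of these 5 lay above the array median. In such bulk tissue, a different share of green cells and a different RNA level per cell cannot be told apart. The part of this difference in the rise of HXK7 was not tested.

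**Figure D3:**
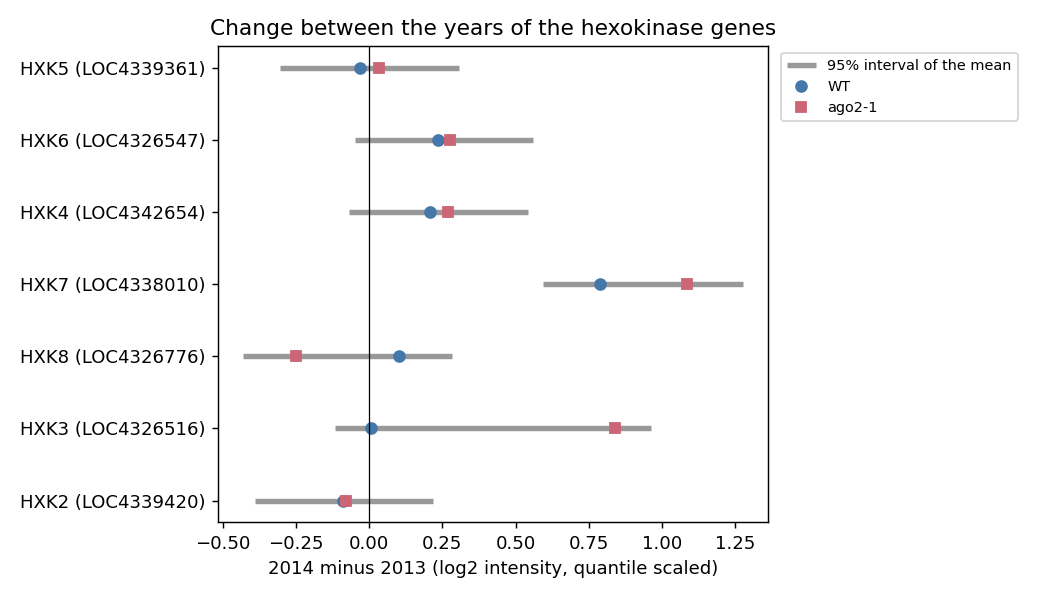
Change in log2 intensity from 2013 to 2014 after quantile scaling (horizontal axis) of the 7 hexokinase genes, with a circle for WT, a square for ago2-1 and limma's 95% interval of their mean as a bar. HXK7, at 0.79 and 1.08, has the only bar that does not reach 0, and for HXK3 the genotypes lay at 0.01 and 0.84.

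The genes with the pattern most like that of LOC4326776 were sought among 17904 other genes, by the Euclidean distance of quantile scaled log2 values after each gene's mean was taken off. LOC4326776 itself deviated by −0.24 (WT) and 0.32 (ago2-1) in 2013, and by −0.14 and 0.07 in 2014. The closest were LOC4336156 at a distance of 0.03, LOC4343851 (MADS18, a MADS-box factor of the floral meristem) at 0.04 and LOC4339037 at 0.04. In all, 60 of the 17904 genes lay within 0.1. How many genes lie that close to other genes was not counted, so the number has no reference.

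Other genes of sugar use were taken from 7 lists of transport, cleavage and signalling genes, with 52 of 60 listed genes measured. None passed the genotype test (limma, adjusted p above 0.05, with 4 at an unadjusted p under 0.05, where 0.512% of all probe sets were), nor did any under a year block (12 at an unadjusted p under 0.05, against 8.77% of all probe sets). Of the 52, 18 were higher on the ago2-1 array in both years, 21 were lower in both and 13 were opposed, with a median difference of −0.05. For all probe sets these shares were 29.7%, 27.0% and 43.2%, and the median was 0.01.

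Upstream of hexokinase, the sucrose synthase gene SUS3 (LOC4343910), whose enzyme splits sucrose into fructose and UDP-glucose, lay at 10.10 (WT) and 8.80 (ago2-1) in 2013, and at 9.77 and 8.46 in 2014. Both ago2-1 arrays were below both WT arrays. Its differences were −1.30 and −1.31 (year-block adjusted p = 0.062), and 2 of the 6 measured sucrose synthase genes were lower in both years and 4 opposed. Invertases, which split sucrose into the glucose and fructose that hexokinase uses, had 3 of 7 genes higher and 4 lower in both years, with the cell wall invertase gene CIN4 at −0.38 in each year. The one measured fructokinase gene, FKI (LOC4324962), differed by −0.54 and −0.19.

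Among 18 measured sugar transporters, 5 were higher in both years, 8 lower and 5 opposed. The sucrose transporter gene SUT1 (LOC4331775) lay at 7.62 (WT) and 9.47 (ago2-1) in 2013, and at 7.97 and 9.05 in 2014. Both of its ago2-1 arrays lay above both WT arrays, with differences of 1.85 and 1.08 (year-block adjusted p = 0.19). Downstream of hexokinase, the 5 measured glycolysis genes differed little, with means from −0.11 to 0.08. The GAPDH gene GAPC2 was at −0.11 in each year.

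Of 8 measured trehalose phosphatases, which make trehalose from its phosphate, 2 were higher in both years, 3 lower and 3 opposed. In 2013 TPP1 (LOC4330221) lay at 11.50 in WT and 7.69 in ago2-1, and in 2014 at 9.08 and 8.30. The WT array of 2013 was the high one, and the difference was −3.81 in 2013 and −0.78 in 2014 (year-block adjusted p = 0.49). Among the fits run for the sugar lists it was the only gene called between the genotypes, in the one that drops the 2014 WT array (−3.50, adjusted p = 0.0041). That fit leaves the high WT array of 2013 alone in its arm, and the lone array is assumed to vary like the ago2-1 arrays. TPP7 (LOC4346885), named after its values were seen, differed by −2.84 and −0.62 on a probe set with the suffix _s_at. Its other probe set, at −0.91 and −0.08, lay below the lower quartile of each array. Whether related transcripts contribute to the TPP7 signal was not tested.

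In the list of SnRK1 kinases and sugar starvation signalling, 6 of 7 measured genes were higher on the ago2-1 array in both years and 1 lower. Their median was 0.25, and 29.7% of all probe sets were higher in both years. SnRK1 is the kinase that responds to low sugar, and its catalytic gene SNRK1A (LOC4339410) differed by 0.22 and 0.19. The gene lower in both years was AMY3D, a sugar-repressed alpha-amylase, at −1.46 and −0.07, whose other probe set was at −0.30 and 0.23. AMY3D was dim, at 5.13 (WT) and 3.68 (ago2-1) in 2013, and at 4.90 and 4.83 in 2014. Only its WT value of 2013 lay above the array median, and its other probe set lay below the median on every array. MYBS2, counted as higher, lay at 1.55 and −0.26 on 1 of its other probe sets and at −0.01 and −0.15 on another. The other probe sets of SNRK1A, OSK3, OSK4 and MYBS3 were higher in both years. Whether related transcripts contribute to the signals of OSK3 and OSK4 was not tested.

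Between the years, 17 of the 52 sugar genes passed, 12 higher and 5 lower in 2014 (32.7%, where 23.3% of all probe sets did). Trehalose phosphatases had 4 of 8 higher and 1 lower, invertases 2 of 7 higher and 2 lower, glycolysis genes 2 of 5 higher, sugar transporters 3 of 18 higher, sucrose synthases 2 of 6 lower and the signalling list 1 of 7 higher.

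**Figure D4:**
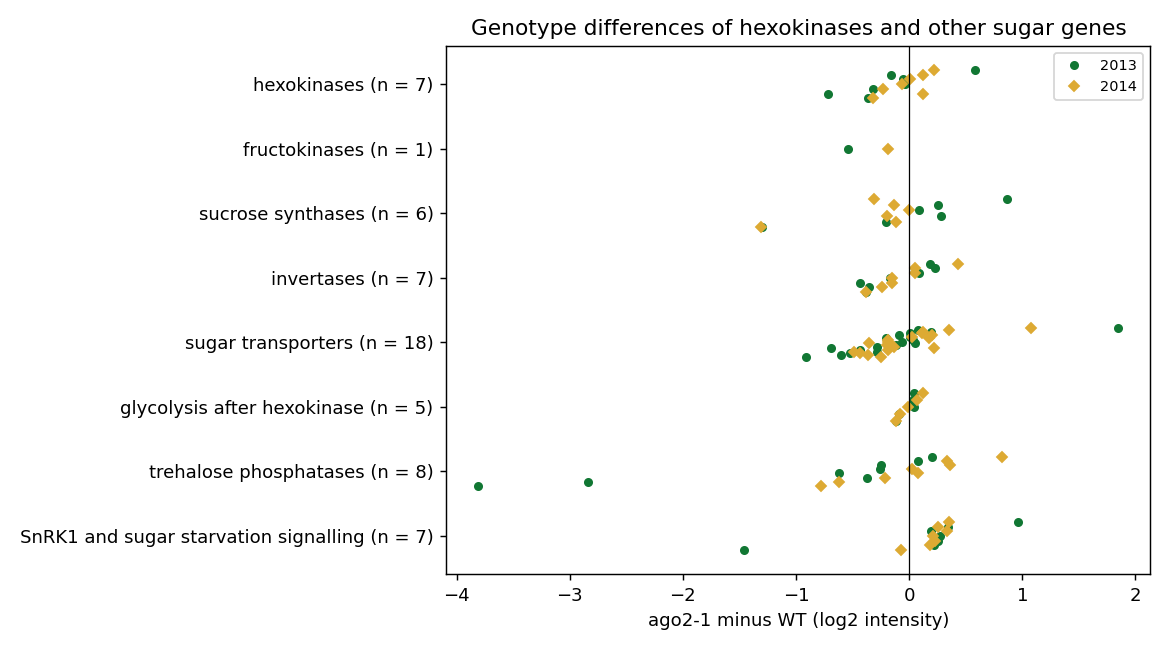
Difference in log2 intensity, ago2-1 minus WT (horizontal axis), of the 7 hexokinase genes and of 52 other sugar genes in 7 groups, with a circle for 2013 and a diamond for 2014 at the same height for each gene. Hexokinases lay between −0.71 and 0.58. The points farthest out are those of TPP1 and TPP7 and SUT1 in 2013.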

How the data were processed

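Young panicles of 2 genotypes were measured on 4 arrays. The authors deposited probe set intensities on a linear scale. Per the submitters' processing notes they used RMA (version not stated). Log2 was taken here with no pseudocount. One label text on RNA extraction names a tissue of another organism, so extraction is treated as unknown. No background measure was used, and the number of arrays limits the precision.

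Genes were matched through the platform annotation (22436 probe sets tied to 1 gene) and symbols or synonyms of the RefSeq table of assembly ASM3414082v1, with a leading Os dropped. Of genes reached by list names, 3 whose other names belong to another gene were left out. Limma 3.58.1 in R 4.3.3 (lmFit, eBayes) was fitted to all 57194 probe sets. P-values had Benjamini-Hochberg adjustment over all of them and a threshold of 0.05. The fit was also tested on simulated data. The simulated differences were larger than those of the members, and the simulated genotype fits held no shift between the years. The simulation therefore cannot show how well differences of the members' size are found. Genotypes were compared without a block, and years with genotype as a term after quantile scaling. The titles give the year of each array, which is taken here as pairing the arrays (deviations from the genotype mean: r = 0.77 between same-year arrays, across probe sets). The prior degrees of freedom were 40.3 without a block (2 residual), 4.36 with it and 4.48 between the years (1 residual each). Alternatives were year as a block, other scalings, a filter on low values, an offset of 16, gene means and leaving out each array. The genotype difference could not be tested between years, as 4 arrays leave no residual degrees of freedom.

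A gene with several probe sets is given by the one with the highest mean. All measured members were named, and in each sugar list the gene with the largest mean difference of 1 sign in both years. Members and lists were chosen with earlier results of these data known.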

Additional observations from a re-analysis of the deposited data

Results flagged for a closer look

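Opposed signs of the genotype difference in the years were found for 3 hexokinase genes, each with 1 array per genotype and year, so the contrast was not tested. HXK3 (LOC4326516) differed by −0.71 in 2013 and 0.13 in 2014, which are 0.84 apart. HXK7 (LOC4338010) differed by −0.16 and 0.13, which are 0.28 apart, and HXK6 (LOC4326547) by −0.06 and 0.01, which are 0.066 apart. Of all probe sets, 43.2% had opposed signs.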

How the results depend on the processing

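No hexokinase gene passed between the genotypes under any alternative. Year as a replicate block gave 0 of 7 members and 0 of the 52 sugar genes, and 61 of all probe sets in place of 29. All probe sets gave 67 calls after quantile scaling together with the replicate block, 1 after quantile scaling, 1 after median centring, 19 among probe sets above the median level, 11 with the offset, and 29 to 136 without single arrays. Dropping single arrays gave 0 to 1 of the sugar genes. The genotype differences then ran from 0.03 to 0.78 for HXK8 (LOC4326776), −0.46 to 0.41 for HXK6 (LOC4326547), −1.04 to 0.45 for HXK3 (LOC4326516), −0.86 to 0.83 for HXK7 (LOC4338010), −0.60 to 0.053 for HXK5 (LOC4339361), −0.34 to 0.23 for HXK2 (LOC4339420) and −0.79 to 0.11 for HXK4 (LOC4342654), with unbalanced years. The mean of its probe sets set HXK2 at 0.017. Between the years, the deposited scale called 7 members, 41 sugar genes and 46058 probe sets, and put HXK8 (LOC4326776) at 0.57 and HXK2 at 0.56, both near the overall shift. HXK5 lay at −0.032 after median centring and −0.020 after cyclic loess. HXK7 was called under each scaling, the filter, the offset and gene means. Sugar genes called were 7 without a genotype term, 8 above the median level and 11 with the offset, and probe sets 4971 and 6883 under the filter and the offset. Without single arrays the counts were 0 to 2 members, 0 to 8 sugar genes and 0 to 8320 probe sets, with HXK8 from −0.35 to 0.21 and HXK5 from −0.16 to 0.16. The cause of these shifts was not tested, except that the filter tests fewer probe sets and a dropped array leaves 3.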
